A study of Homo sapiens with 4 samples.

Results

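Epi-like cells of blastoids that had received 4 mM of the cell-permeable metabolite dimethyl α-ketoglutarate (dm-αKG) were compared at 120 h with the cells of 4 mM aggregates at 40 h. Cells were chosen by their tags and by measured counts, in 1 multiplexed capture of 9431 barcodes. A barcode was used when 1 hashtag held at least 80% of its hashtag UMIs (unique molecular identifiers, which count molecules), when at most 15% of its gene UMIs came from mitochondrial genes and when it held at least 7000 UMIs. A blastoid cell was called Epi-like when the summed UMIs of KRT8, KRT18, GATA3 and CLDN4 did not exceed those of POU5F1, DPPA5, DPPA4, L1TD1 and TDGF1. This gave 1006 Epi-like cells of 1062 blastoid cells, and 1098 aggregate cells, together 2104 of the 12793 cells that passed the same limits in the whole series.

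All cultures were of H9, an established line of human embryonic stem cells that had been chemically reset to the naive state. Cells were seeded in microwells at 80 to 85 per well, left to aggregate for 16 h with Y27632, then kept for 48 h in the medium PALLY (1 µM of the MEK inhibitor PD0325901, 1 µM of the TGFβ receptor inhibitor A83-01, 10 ng/mL LIF, 1 µM LPA and 10 µM of the ROCK inhibitor Y27632) and for 56 h in LPA and Y27632 alone. The compound was present for the first 40 h. The 4 mM aggregates were therefore taken under the compound and both inhibitors, and the 4 mM blastoids after the compound, the inhibitors and LIF had been withdrawn. Time, withdrawal of dm-αKG, withdrawal of the inhibitors, the picking by hand of blastoids with a single cavity and the choice of Epi-like cells all separate the groups and cannot be told apart. Each group was 1 hashtagged culture of many pooled structures, so no test between cultures was possible. Beside them stand 0 mM aggregates (1017 cells) and 0 mM blastoids (360 Epi-like cells) of the same capture, and a second capture, run 2, with 4 mM (4997 Epi-like cells) and 0 mM blastoids.

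In blastoids, naive cells form an outer trophectoderm-like epithelium around a cavity and an inner cluster that resembles the epiblast, the source of the embryo proper. FGF ligands act through FGF receptors on the kinases MEK and ERK, and active ERK switches on genes that restrain it, such as the Sprouty and DUSP families. Nodal, a TGFβ-type ligand, acts through ALK receptors and SMAD2/3 and likewise switches on its own antagonists, the Lefty proteins. The ERK route is known to carry human epiblast cells away from the naive state.

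The blastoid culture carried hashtag A0252 and the aggregate culture hashtag A0254. Their tag sequences are shown in capitals, since they alone assign a cell to its culture.
A0252, blastoids 4 mM: TGATGGCCTATTGGG
A0254, aggregates 4 mM: AGTAAGTTCAGCGTA
At 4 mM the quality limits removed more aggregate than blastoid cells. Of the barcodes with a clear hashtag, 1098 of 2186 aggregate barcodes (50.2%) and 1062 of 1366 blastoid barcodes (77.7%) were kept. Of those aggregate barcodes, 780 exceeded the mitochondrial limit and 937 were under the UMI limit. The groups used were alike in depth, with medians of 28270 UMIs per aggregate cell and 30048 per Epi-like cell, and sums of 32430297 and 31501922 UMIs. Median mitochondrial shares were 5.14% and 4.35%. At 0 mM the loss ran the other way, with 75.6% of aggregate and 48% of blastoid barcodes kept. The part of the unequal losses in the results below was not tested. The captures shared 28 barcode sequences, 10 of them among kept cells.

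The class rule left few doubtful cells. Over Epi-like cells the trophectoderm genes of the rule made up a median of 4.68% of the UMIs of all 9 rule genes, and over the 56 other blastoid cells, called TE-like, 94.4%. The Epi-like cells nearest the limit had 45.3, 42.1 and 39.4%, and the nearest TE-like cells 51.8, 52.1 and 60.7%, with 4 blastoid cells between 40 and 60%. Aggregate cells had a median of 7.42%, and 2 of them were above the limit. TE-like cells were 5.27% of kept 4 mM blastoid cells of run 1 (95% Clopper-Pearson interval 4.01 to 6.79%). In run 2 they were 3.33% (2.86 to 3.85%). These intervals cover the sampling of cells only and not the spread between cultures. Dissociation and sorting can also lose fragile trophectoderm cells.

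The rule genes themselves describe the groups and are no finding. As levels in CPM, a gene's UMIs scaled to the same total in each group, POU5F1, the core pluripotency factor OCT4, stood at 856 in aggregates and 949 in Epi-like cells, and DPPA5 at 1687 and 2010. DPPA4 stood at 272 and 393, L1TD1 at 400 and 986 and TDGF1 at 185 and 418. KRT8 went from 116 to 65.8 CPM and KRT18 from 251 to 264, while GATA3 and CLDN4 were at or under 2.07 CPM in both groups.

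Of 7383 genes with a mean of at least 10 CPM over both groups, 110 were at least 2-fold higher (1.49%) and 53 at least 2-fold lower (0.718%) in Epi-like cells. A gene under 10 CPM in 1 group was compared only through its level in the other. Higher and lower are used below only for genes past this limit, taken on log2(CPM + 1) with a ratio interval clear of 1. Ratios carry exact 95% intervals from the UMI counts, which cover counting error only and not the spread between cultures. The median log2 ratio of all genes compared was -0.006 and their SD 0.394. Between the 4 mM Epi-like cells of run 1 and of run 2, which are separate cultures, the SD was 0.159 and 10 genes lay at least 2-fold apart. With run 2 in place of run 1, all 110 higher and all 53 lower genes kept their sign, while 77 and 32 of them were again past 2-fold. These fits share the aggregate culture. The limit cut a continuous range, since 23 genes lay within 0.1 above a log2 ratio of 1 and 35 within 0.1 below it. For falls these counts were 19 and 28.

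**Figure D1:**
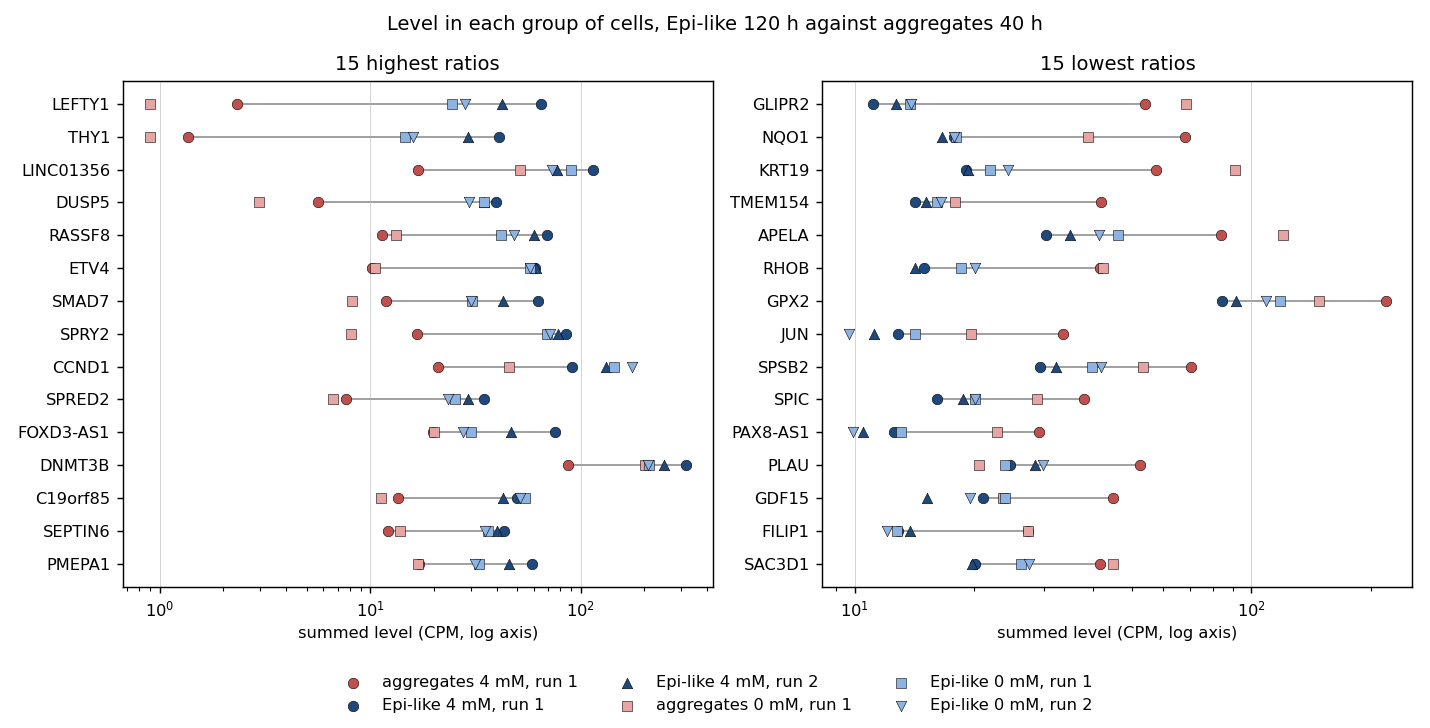
Summed level in CPM (log axis) of the 15 named genes with the highest and the 15 with the lowest ratios, in each of 6 cultures; a grey line joins the 4 mM aggregates and the 4 mM Epi-like cells of run 1. For LEFTY1, the 4 mM points move from 2.34 CPM in aggregates to 64.6 and 42.2 in Epi-like cells of run 1 and run 2; for GLIPR2, from 53.8 down to 11.1 and 12.7.

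Feedback genes of ERK signalling were higher in Epi-like cells than in aggregates. The list held 20 genes, of which 7 were compared, 6 were higher and none was lower, with a median log2 ratio of 2.29 against -0.006 over all genes. SPRY2, a Sprouty inhibitor of receptor tyrosine kinase signalling, stood at 16.7 CPM in aggregates and at 85.5 and 78.3 CPM in Epi-like cells of run 1 and run 2. Its level was thus 5.13-fold higher in run 1 (interval 4.68 to 5.64). DUSP5, a phosphatase of nuclear ERK (chr10:110497907-110511533, GRCh38), stood at 5.67, 39.7 and 34.6 CPM in the same order, and was 6.99-fold higher in run 1 (5.99 to 8.21). ETV4 and ETV1, transcription factors of the PEA3 group downstream of FGF, stood at 10.2 and 0.987 CPM in aggregates and at 60.8 and 26.2 in Epi-like cells. SPRED2, which blocks RAF activation, was 4.50-fold higher (3.92 to 5.19), from 7.71 to 34.7 CPM. CCND1, the G1 cyclin D1, was 4.36-fold higher, from 20.9 to 91.1 CPM, and reached 132 CPM in run 2. PHLDA1, a target of the pathway, moved least, from 25.1 to 32.7 CPM.

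The other 13 list members had means under 10 CPM, and 12 of them also had the higher level in Epi-like cells. SPRY4 went from 3 UMIs in 1098 aggregate cells (0.0925 CPM) to 258 UMIs in the Epi-like cells (8.19 CPM), a ratio of 88.5 with a wide interval of 30.0 to 432. DUSP6, the cytoplasmic ERK phosphatase, went from 5 to 121 UMIs and DUSP4 from 7 to 235. ETV5 stood at 1.17 and 9.59 CPM. Summed over the 20 genes, the level was 113 CPM in 4 mM aggregates and 447 CPM in 4 mM Epi-like cells, with 457 in run 2. At 0 mM the same sums were 113 CPM in aggregates and 419 in Epi-like cells, so both aggregate cultures were low and all blastoid cultures high.

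A second start site of SPRED2 is shown because its window holds an AP-1 site, the letters that FOS and JUN proteins bind. The window is chr2:65366729-65367028 on the minus strand (RefSeq, GRCh38.p14), 250 bases before to 50 after the start, with the match in capitals 6 bases before the start.
SPRED2: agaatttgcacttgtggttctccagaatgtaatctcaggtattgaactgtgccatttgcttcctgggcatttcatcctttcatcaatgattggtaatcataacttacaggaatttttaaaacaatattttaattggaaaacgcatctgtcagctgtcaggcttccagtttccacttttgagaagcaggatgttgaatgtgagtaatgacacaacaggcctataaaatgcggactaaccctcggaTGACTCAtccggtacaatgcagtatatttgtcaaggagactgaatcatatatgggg
The letters TGACTCA, searched on both strands, stood in 4.95% of all 35116 windows and in 2 of 119 windows (1.68%) of the 81 higher genes matched by symbol.

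Of 12 FGF ligands and receptors, 8 were compared, 2 were higher and none was lower. FGFR1, the main FGF receptor of epiblast cells, stood at 32.7 CPM in aggregates and 83.6 in Epi-like cells, 2.56-fold higher (2.38 to 2.75). FGFR3 stood at 19.1 and 41.3 CPM. FGF2 at 21.1 and 41.0 CPM fell just short of the limit, and the epiblast ligand FGF4 stood at 162 and 219 CPM.

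Immediate early genes, which answer growth factors within minutes, mostly had the higher level in Epi-like cells, though JUN went the other way. Of 18 listed, 8 were compared, with FOS, JUNB and IER2 higher and JUN lower. Of the 8, 6 had the higher level, as did 9 of the 10 not compared. The list summed to 462 CPM in 4 mM aggregates and to 658 and 588 CPM in Epi-like cells of run 1 and run 2. At 0 mM the run 1 sums were 429 and 709 CPM. FOS stood at 1.45 CPM in 4 mM aggregates and at 32.3 and 14.8 CPM in Epi-like cells of run 1 and run 2, so both runs were above the aggregates but unlike each other. JUNB went from 10.7 to 27.1 CPM and IER2 from 138 to 303. JUN, the partner of FOS in AP-1, went the other way, from 33.6 CPM to 12.9 and 11.2, 2.62 times lower in run 1 (2.33 to 2.94). EGR1, under the limit, had 12 UMIs in aggregates and 364 in Epi-like cells, and its 11.6 CPM in run 1 stood against 3.11 in run 2. These genes also respond to cell dissociation, and the part of tissue handling in them was not tested.

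Some genes of the Nodal and TGFβ route were also higher. Without TDGF1, which the class rule uses, the list held 23 genes, of which 15 were compared, 5 were higher and none was lower, with a median log2 ratio of 0.72 in run 1, 0.35 with run 2 and 0.31 at 0 mM. LEFTY1, a secreted inhibitor of Nodal (chr1:225886282-225911382), had the highest log2 ratio (4.29, on CPM + 1) of the named genes compared. It had 76 UMIs in the aggregates (2.34 CPM) and 2035 in the Epi-like cells (64.6 CPM), 27.6-fold higher (21.9 to 35.1), with 42.2 CPM in run 2. LEFTY2, its near-identical neighbour on the same chromosome, stood at 0.925 and 6.82 CPM, and reads of the pair may be split between them. NODAL itself stood at 41.6 CPM in aggregates and at 134 and 102 CPM in Epi-like cells of the 2 runs, 3.22-fold higher in run 1 (3.02 to 3.42). SMAD7, an intracellular inhibitor of the receptors, went from 11.9 to 62.8 and 42.8 CPM. PMEPA1, a SMAD-induced inhibitor of the route, went from 17.1 to 58.7 and 45.8 CPM. The corepressor TGIF2 went from 10.3 to 25.1 CPM. Each of these 5 genes stood lower in both aggregate cultures than in any of the 4 blastoid cultures. For TGIF2 the nearest values were 10.3 CPM in 4 mM aggregates and 15.7 in 0 mM Epi-like cells. The type I receptor TGFBR1 (13.5 and 25.3 CPM) and the corepressor gene SKIL (88.3 and 146 CPM) had smaller ratios. The 4 compared members with the lower level in Epi-like cells, none past 2-fold, were FOXH1 (85.1 and 62.9 CPM), SMAD2 (36.0 and 31.4 CPM), the receptor gene ACVR1B and the protease gene FURIN. No gene of the 5 compared on the BMP list was past 2-fold. That list's median log2 ratio was 0.37 in run 1, 0.36 with run 2 and 0.19 at 0 mM. Of the 5 genes, 4 had the higher level in Epi-like cells, and the BMP target ID1 had a log2 ratio of -0.17.

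A window of PMEPA1 is shown because it holds the letters bound by FOXH1, the DNA-binding partner of SMAD2/3. It is 1 of 4 windows of the gene, at chr20:57710528-57710827 on the minus strand, with the match in capitals 104 bases before the start.
PMEPA1: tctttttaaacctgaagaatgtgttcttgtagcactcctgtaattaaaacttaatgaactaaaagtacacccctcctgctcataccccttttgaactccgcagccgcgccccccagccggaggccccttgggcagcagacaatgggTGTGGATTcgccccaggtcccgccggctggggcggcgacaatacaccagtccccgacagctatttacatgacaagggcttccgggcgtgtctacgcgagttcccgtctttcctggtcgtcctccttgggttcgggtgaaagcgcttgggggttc
The letters TGTGGATT stood, on either strand, in 0.817% of all windows and in 1 of the 119 windows of higher genes (0.84%). The palindrome GTCTAGAC of SMAD proteins stood in 0.202% of all windows and in 1 of the 119, that of BCAT1, and the ETS letters CCGGAAGT in 4.14% and in 3 of the 119.

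Core pluripotency genes were not lower at 120 h. Of 13 listed genes outside the class rule, all were compared, 3 were higher and none was lower, with a median log2 ratio of 0.65 in run 1, 0.45 with run 2 and 0.16 at 0 mM. FOXD3, a forkhead factor needed by pluripotent cells (chr1:63322567-63325128), stood at 3.64 CPM in aggregates and at 21.6 and 14.3 CPM in Epi-like cells of run 1 and run 2, 5.92-fold higher in run 1 (4.87 to 7.27). TRIM71, an RNA-binding ubiquitin ligase, went from 82.0 to 205 and 190 CPM. The telomere protein gene TERF1 went from 139 to 290 CPM in run 1 and to 244 in run 2. NANOG stood at 158 CPM in aggregates and at 208 and 163 CPM in Epi-like cells, so in run 2 it lay close to the aggregates. SOX2 stood at 144, 118 and 94.8 CPM, lower in both blastoid cultures without passing 2-fold.

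FOXD3-AS1, a noncoding RNA read from the opposite strand beside FOXD3, went from 19.9 CPM in aggregates to 75.6 and 46.9 in Epi-like cells, 3.81-fold higher in run 1 (3.49 to 4.16). The start windows of FOXD3 and FOXD3-AS1 share 208 of 300 bases, and whether the counting used strand is not given in the sources used here. The FOXD3 window, chr1:63322317-63322616 on the plus strand, is shown for this shared stretch, with a CRE (the letters bound by CREB and ATF proteins) in capitals 72 bases before the start.
FOXD3: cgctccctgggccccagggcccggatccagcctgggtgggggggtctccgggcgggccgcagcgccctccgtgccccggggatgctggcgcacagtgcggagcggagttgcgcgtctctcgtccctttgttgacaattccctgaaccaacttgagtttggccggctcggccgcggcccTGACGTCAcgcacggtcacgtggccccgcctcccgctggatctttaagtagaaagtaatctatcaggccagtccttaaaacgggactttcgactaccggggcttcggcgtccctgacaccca
The letters TGACGTCA stood in 1.85% of all windows and in 7 of the 119 windows of higher genes (5.88%), those of FOXD3, FOXD3-AS1, JARID2, PMEPA1, PPP1R15A, TGIF2 and VPS37B. FOXD3 and FOXD3-AS1 hold the same site, and none of the 52 windows of lower genes held one. LINC01356, another noncoding RNA of the pluripotency list, went from 16.8 CPM in aggregates to 114 and 77.3 CPM in Epi-like cells.

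Naive and later epiblast genes were mixed. Of 27 naive genes compared outside the class rule, 3 were higher and 1 was lower, with a median log2 ratio of 0.20. Of the 27, 18 had the higher and 9 the lower level in Epi-like cells. KLF17, a factor of the human naive state, went from 14.7 to 38.7 and 34.2 CPM, and ZFP57, a zinc finger protein that protects imprints, had a log2 ratio of 1.45, with 42.6 and 42.2 CPM in Epi-like cells. NODAL was the other higher gene, since the list also holds it. TBX3 was lower in run 1 (16.3 and 7.08 CPM), but run 2 stood at 12.5 CPM. Among members with smaller ratios, KHDC1L stood at 3430 CPM in aggregates and at 2232 and 2415 CPM in Epi-like cells, KLF4 at 55.5, 37.1 and 33.6 CPM and SUSD2, a surface marker of naive cells, at 78.0, 54.8 and 53.8 CPM. DPPA3 stood at 185, 234 and 199 CPM.

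Of 37 genes listed for the epiblast after implantation, 17 were compared, 7 were higher and none was lower. The list was divided, since 10 of the 17 had the higher and 7 the lower level in Epi-like cells. At 0 mM these counts were 8 and 9, and with run 2 blastoids 4 members were higher and 1 was lower. SFRP1 (80.5 and 47.8 CPM), NES and DNMT3A were among those with the lower level. The median log2 ratio was 0.93 in run 1 but 0.33 with run 2 and -0.07 at 0 mM, so this list's median moved with the run more than those of the ERK list. THY1 (CD90), a surface protein of primed cells (chr11:119415476-119424985), had 44 UMIs in aggregates and 1289 in Epi-like cells, at 1.36 and 40.9 CPM, 30.2-fold higher (22.3 to 41.7), with 29.1 CPM in run 2. SFRP2, a secreted WNT modulator, went from 1.08 to 21.1 and 18.1 CPM. CD24 went from 111 to 299 and 230 CPM, USP44 from 11.3 to 35.6 and 22.7, and TCF7L1 from 5.43 to 16.8 and 12.8. ETV4 and DNMT3B complete the 7. Members that define later stages stayed low, with ZIC2 at 0.648 and 5.24 CPM and OTX2 at 3.70 and 6.32 CPM.

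DNMT3B, a DNA methyltransferase that acts on unmethylated DNA (chr20:32762385-32809359), stood at 87.4 CPM in 4 mM aggregates and at 317 and 248 CPM in 4 mM Epi-like cells, 3.63-fold higher in run 1 (3.48 to 3.79). At 0 mM it stood at 202 CPM in aggregates and at 212 and 210 CPM in Epi-like cells. The 4 mM aggregates were thus the lowest of the 6 cultures and the 4 mM blastoids the highest. Of 12 DNA methylation genes, 9 were compared, and DNMT3B and ZFP57 were the 2 higher ones. DNMT1, which copies methylation, stood at 67.0 and 72.6 CPM, DNMT3A at 67.6 and 59.7, DNMT3L at 107 and 79.9 and the demethylase gene TET1 at 276 and 322.

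Enzymes that use α-ketoglutarate as a cosubstrate showed no gene past 2-fold. Of 39 such oxygenases, 31 were compared, with a median log2 ratio of 0.03 and a range from -0.70 to 0.70. P4HA1, a collagen prolyl hydroxylase, had the highest ratio, at 47.9 and 78.1 CPM. Among 22 genes of glutamate and amino acid metabolism compared, 3 were higher, among them BCAT1 and SLC38A2, and none was lower, with a list median of 0.12. BCAT1, which transfers the amino group of branched-chain amino acids to α-ketoglutarate, went from 58.1 to 148 and 125 CPM, 2.55-fold higher in run 1 (2.42 to 2.70). SLC38A2, a glutamine carrier, went from 45.6 to 97.4 and 94.2 CPM.

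**Figure D2:**
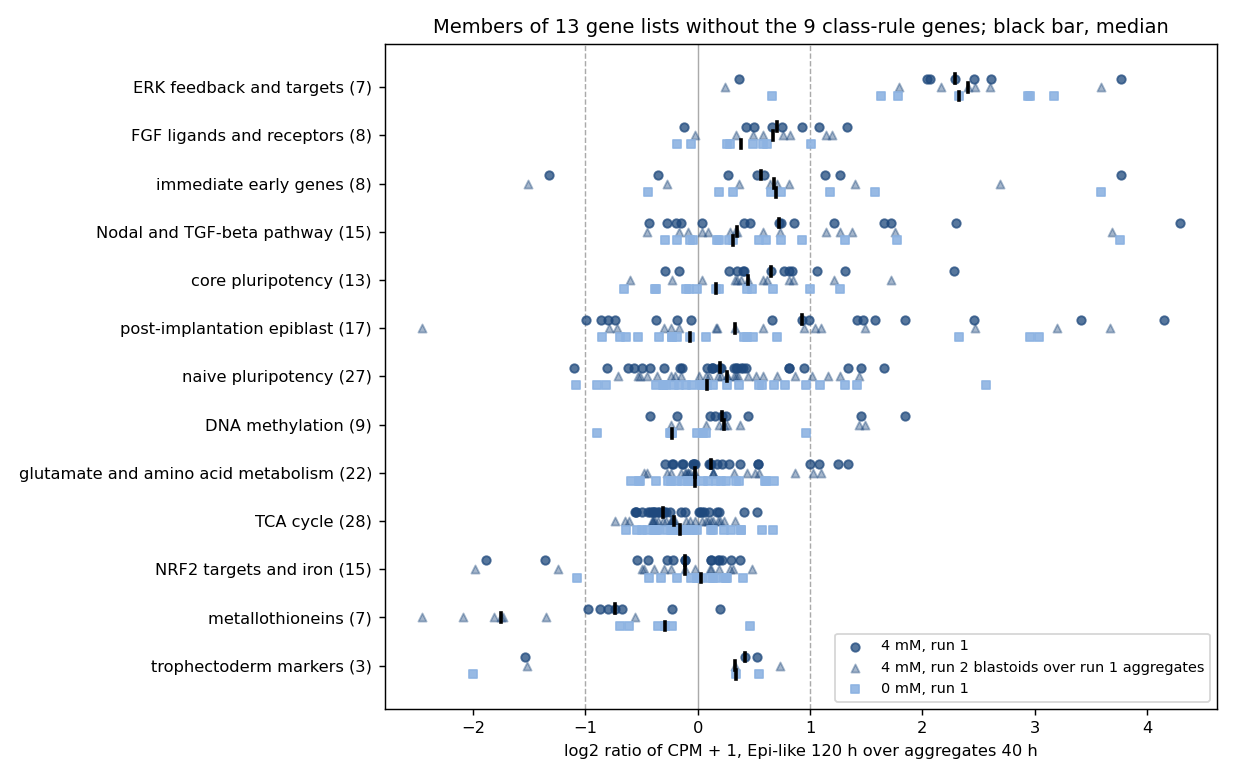
Log2 ratio of CPM + 1, Epi-like over aggregates, for each compared member of 13 gene lists (number compared in brackets, the 9 class-rule genes left out), at 4 mM in run 1, with run 2 blastoids over the same aggregates, and at 0 mM; black bars are medians and dashed lines mark 2-fold. The ERK feedback list has medians of 2.29, 2.41 and 2.33, and the metallothionein list medians of -0.74, -1.75 and -0.29.

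No list held more than 2 genes lower in Epi-like cells. GLIPR2, a Golgi-associated protein (chr9:36136536-36163913), had the largest fall of the named genes, from 53.8 CPM in aggregates to 11.1 and 12.7, 4.83 times lower in run 1 (4.30 to 5.43). IGFBP6, a binding protein of insulin-like growth factors that was under the level asked of named genes and was picked after its values were seen, fell further, from 18.7 to 1.59 and 2.24 CPM. APELA, a secreted peptide of pluripotent cells, stood at 84.0, 30.3 and 35.0 CPM, and RHOB, a small GTPase, at 41.6 CPM in aggregates and 14.2 in run 2, with a log2 ratio of -1.41 in run 1. For these 4 genes both 4 mM blastoid cultures stood below the 4 mM aggregates. The rule for naming genes required this of GLIPR2, APELA and RHOB, and IGFBP6 was picked with both values known. It is therefore no independent support. SPSB2, SPIC, PAX8-AS1, FILIP1 and SAC3D1 had folds between 2.07 and 2.39 in run 1. With run 2, SPIC and FILIP1 had log2 ratios of -0.97 and -0.93, short of the limit.

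Of 15 compared genes of the NRF2 and iron list, 2 were lower and none was higher. NQO1, a quinone reductase and NRF2 target (chr16:69706996-69726668), stood at 68.2 CPM in 4 mM aggregates and at 17.8 and 16.6 CPM in Epi-like cells, 3.82 times lower (3.48 to 4.20). GPX2, a glutathione peroxidase, stood at 218, 84.4 and 91.5 CPM, 2.58 times lower (2.47 to 2.70). The list as a whole did not follow them, with a median log2 ratio of -0.11, HMOX1 at 23.2 and 27.3 CPM and TXNRD1 at 184 and 227 CPM.

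No metallothionein passed 2-fold in run 1, though 6 of 7 compared had the lower level in Epi-like cells, with a median log2 ratio of -0.74. MT1G, a metal-binding protein, stood at 836 CPM in 4 mM aggregates and at 456 CPM in run 1, and MT2A at 291 and 183 CPM. In run 2 they stood at 196 and 87.1 CPM, and 6 of the 7 were past 2-fold there with a median of -1.75. These levels therefore differed between the 4 mM blastoid cultures about as much as between blastoids and aggregates. MT1 genes are close copies of each other, and their reads may be split.

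Stress genes were also divided. Among 23 genes of the ATF4 and stress list, PPP1R15A, which restores translation, was higher (21.6 and 46.1 CPM) and GDF15, a secreted stress cytokine, lower (44.7 and 21.1 CPM). Among 15 p53 targets, CDKN1A, the cell cycle inhibitor p21, was higher in run 1 (8.51 and 20.3 CPM, with 14.5 in run 2), GDF15 was lower, and the list median was 0.45. The pathway's own target MDM2 stood at 107 and 147 CPM. Of 15 hypoxia genes ANKRD37 was lower (16.7 and 7.49 CPM) and none was higher.

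Most markers of other cell types had means under 10 CPM over both groups. Of 19 trophectoderm markers outside the class rule, 3 were compared and KRT19 was lower. The other 2 compared had the higher level in Epi-like cells, short of 2-fold. The median log2 ratio was 0.42 in run 1, 0.33 with run 2 and 0.34 at 0 mM. Of the 16 not compared, 6 had the higher and 9 the lower level. KRT19, a keratin of simple epithelia, stood at 57.4 CPM in 4 mM aggregates and at 19.1 and 19.3 CPM in Epi-like cells, 3.01 times lower (2.74 to 3.30). TE-like cells were taken out of the blastoids by a rule that uses other keratins. KRT19 depends on that choice, and with all blastoid cells its log2 ratio was 0.55. It stayed lower when the rule was put on the aggregates too, where 2 cells were above the limit. The sum over the 19 markers, KRT19 among them, was 110 CPM in aggregates and 73.1 in Epi-like cells. VGLL1 had 0 and 1 UMI, and CGA had 0 in both. Primitive endoderm markers summed to 40.1 and 47.3 CPM, with 2 of 14 compared, and SOX17 at 0.0925 and 0.0952 CPM. None of 14 primitive streak and mesoderm markers reached the limit, and their sum was 17.5 and 9.94 CPM. Of 10 amnion and 10 neural markers 1 each was compared, ANXA3 (94.5 and 52.7 CPM) and NES (92.6 and 50.6 CPM). In bulk sums of this kind, fewer cells of a type and less RNA per cell cannot be told apart.

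Nuclear genes of mitochondrial respiration mostly had slightly lower levels. Of 76 nuclear genes for oxidative phosphorylation subunits compared, none was past 2-fold, but 71 had the lower level in Epi-like cells, with a median log2 ratio of -0.30 in run 1, -0.31 with run 2 and -0.22 at 0 mM. Their sum was 29046 CPM in 4 mM aggregates and 24157 and 23932 CPM in Epi-like cells of run 1 and run 2. The 28 compared genes of the tricarboxylic acid cycle had a median of -0.30 with none past 2-fold. SUCLG1, a subunit of succinyl-CoA synthetase, stood at 90.6 and 61.4 CPM. Of 21 glycolysis genes, 15 had the higher level, with LDHA, lactate dehydrogenase A, at 426 CPM in aggregates and 800 and 925 CPM in Epi-like cells. The 13 mitochondrially encoded genes did not share a direction. Of them 7 had the higher and 6 the lower level in Epi-like cells, with a median log2 ratio of 0.09. Their sum was 52594 CPM in 4 mM aggregates and 44481 CPM in Epi-like cells, but 44467 and 46449 CPM at 0 mM, where 11 of 13 had the higher level in Epi-like cells. The limit on mitochondrial UMIs also acts on these sums.

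Cell division genes had small ratios. No gene of 39 compared on the S phase list or of 52 on the G2/M list was past 2-fold, with medians of 0.20 and -0.05. Besides CCND1, cyclin D2 (CCND2) was higher, at 46.8 CPM in aggregates and 100 and 101 in Epi-like cells. Cytosolic ribosomal protein genes had a median of 0.03 over 83 genes. In the YAP and TEAD list only AMOTL2, an angiomotin-like scaffold, was past the limit, at 4.32 and 18.4 CPM, and in the Notch list only the ligand gene JAG1, with a log2 ratio of 1.38. The lists on WNT, LIF and STAT3, cholesterol synthesis, fatty acid synthesis, heat shock, polarity, cell junctions, extracellular matrix, mitochondrial ribosome and histone genes held no gene past 2-fold, and among imprinted genes DLK1 alone was lower, at 14.7 and 6.79 CPM.

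Several of the higher genes were detected in a large share of Epi-like cells. Each cell was thinned to 7000 UMIs, which left out none, since that was the minimum. After thinning, 6.86% of Epi-like cells and 48.9% of aggregate cells held no UMI of the 20 ERK feedback genes, and the medians were 3 and 1 UMIs per cell. For the Nodal list without TDGF1 the medians were 7 UMIs in Epi-like cells (10th to 90th percentile 4 to 12) and 4.5 in aggregates (2 to 8). For the 13 core pluripotency genes they were 15 (9 to 22) and 10 (6 to 16), so the ranges overlapped although the whole distribution stood higher.

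LEFTY1 was detected in 30.4% of thinned Epi-like cells, 1.28% of aggregate cells and 1.79% of the 56 TE-like cells of the same culture, which serve as a background for free RNA. Before thinning, 61.0% and 5.92% of Epi-like and aggregate cells held a LEFTY1 UMI. SPRY2 was detected in 45.1% of Epi-like, 10.3% of aggregate and 5.36% of TE-like cells, THY1 in 21.2, 0.729 and 0%, and FOXD3-AS1 in 37.5, 11.9 and 0%. A count of 0 among 56 cells allows a share of cells with a UMI of up to 5.36% by a floor of 3 counts, and up to 6.38% by the Clopper-Pearson interval. DUSP5, CCND1 and LINC01356 behaved otherwise, since TE-like cells held them too. Their shares were 20.7, 38.4 and 43.5% in Epi-like cells and 35.7, 60.7 and 48.2% in TE-like cells, against 2.82, 11.7 and 10.6% in aggregates. DNMT3B was detected in 82.2% of Epi-like and 40.7% of aggregate cells. In the other direction, NQO1 was detected in 38.0% of aggregate cells, 10.8% of Epi-like and 51.8% of TE-like cells, and GLIPR2 in 27.3, 7.26 and 28.6%.

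**Figure D3:**
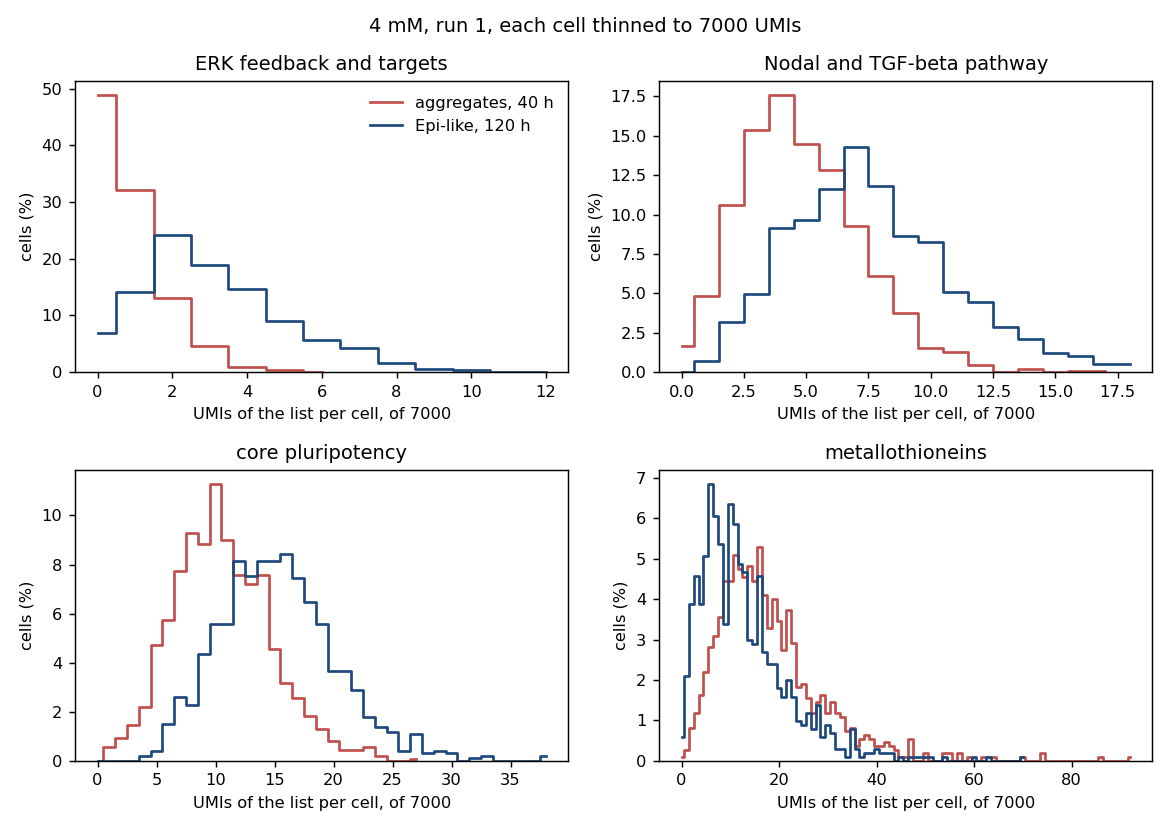
Share of cells (%) by the number of UMIs of a gene list per cell, each cell thinned to 7000 UMIs, for 4 mM aggregates (1098 cells) and 4 mM Epi-like cells of run 1 (1006 cells), class-rule genes left out. For ERK feedback genes 48.9% of aggregate cells and 6.86% of Epi-like cells are at 0, and the metallothionein curve of Epi-like cells lies to the left of that of aggregates.

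The same contrast without the compound, 0 mM Epi-like cells against 0 mM aggregates, uses other cultures of the same capture. Over the 7383 genes, Pearson's r between the log2 ratios at 4 and 0 mM was 0.646, a description across genes that share 1 capture. Of the 110 genes higher at 4 mM, 106 had a positive ratio at 0 mM and 43 were past 2-fold there (39.1% of the 110 and 55.1% of the 78 higher at 0 mM), with median log2 ratios of 1.33 at 4 mM and 0.94 at 0 mM. Of the 53 lower genes, 46 had a negative ratio at 0 mM and 8 were past 2-fold (15.1% of the 53 and 25% of the 32 lower at 0 mM), with medians of -1.17 and -0.60. The 0 mM sum rests on fewer UMIs, from 360 Epi-like cells. At 0 mM the quality limits removed more blastoid than aggregate barcodes, unlike at 4 mM.

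ERK feedback genes had like ratios at both doses. The log2 ratio of SPRY2 was 2.29 at 4 mM and 2.94 at 0 mM, that of DUSP5 2.61 and 3.17, and that of ETV4 2.46 and 2.33. LEFTY1 had 4.29 and 3.76, and FOS 3.77 and 3.59. Falls that the doses shared included those of GLIPR2 (-2.17 and -2.23), APELA (-1.44 and -1.36) and RHOB (-1.41 and -1.15). NQO1 (-1.88 and -1.07), FILIP1 (-1.02 and -1.03) and KRT19, which depends on the choice of Epi-like cells, were also lower at both doses.

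Other genes differed by dose, several of them in the aggregates. The ratios of 69 compared genes lay at least 1 apart on the log2 scale between doses. LINC01356 had 2.69 at 4 mM and 0.80 at 0 mM, with 16.8 CPM in 4 mM and 51.4 CPM in 0 mM aggregates. DNMT3B had 1.85 and 0.07, and CD24 1.42 and -0.07, with aggregates at 111 CPM (4 mM) and 212 CPM (0 mM) and Epi-like cells at 299 and 202 CPM in run 1. SERPINB9, an inhibitor of granzyme B, had -0.12 and -1.67, since 0 mM aggregates stood at 397 CPM and 4 mM aggregates at 187. FOXD3-AS1 had 1.88 and 0.55, and here the aggregates were alike (19.9 and 20.2 CPM) and the blastoids apart (75.6 and 30.1 CPM in run 1, 46.9 and 27.7 in run 2). IFI16, a DNA sensor, showed the largest gap of the named genes, with 0.13 at 4 mM and 2.57 at 0 mM. It stood at 22.4 CPM in 4 mM aggregates, 5.46 in 0 mM aggregates, 24.6 and 37.1 CPM in 4 mM Epi-like cells and 37.4 and 45.1 CPM in 0 mM Epi-like cells. TMEM154 stood at 41.8 CPM in 4 mM aggregates and between 14.2 and 17.9 CPM in the other 5 cultures. GDF15 and SCNN1A, a subunit of the epithelial sodium channel, had a like pattern, with 44.7 and 44.3 CPM in 4 mM aggregates and at most 23.9 and 25.2 CPM in the others. With 1 aggregate culture per dose, none of these differences could be tested, and none is shown to belong to the dose.

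**Figure D4:**
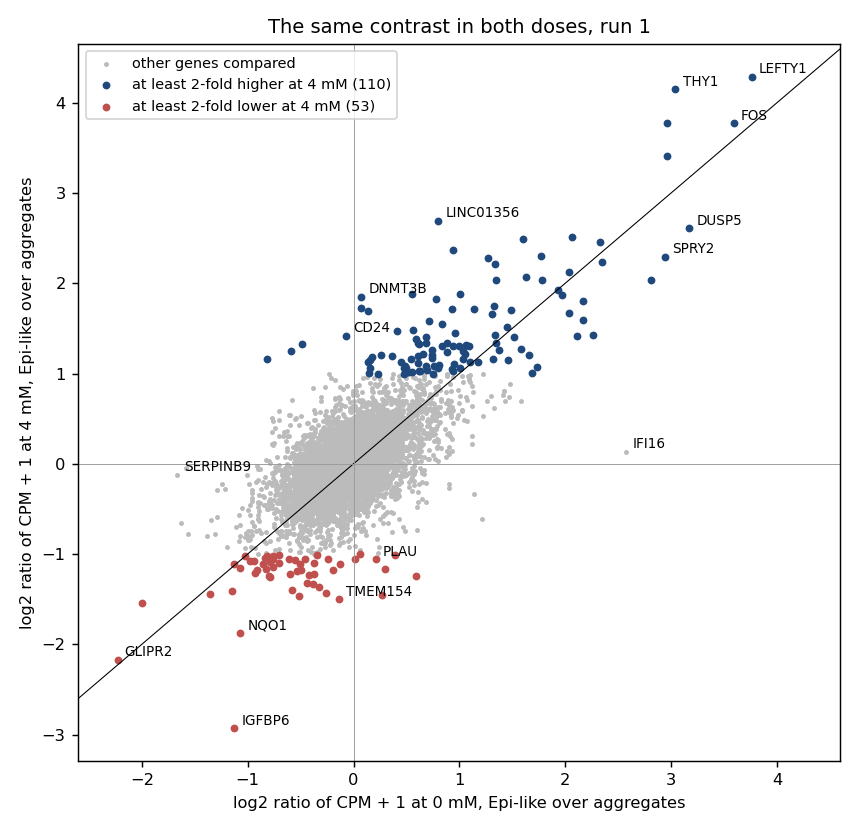
Log2 ratio of CPM + 1, Epi-like over aggregates, at 0 mM (horizontal) and 4 mM (vertical) for the 7383 genes compared in run 1; the diagonal marks equal ratios, and the 110 higher and 53 lower genes at 4 mM are coloured. SPRY2, DUSP5, LEFTY1 and GLIPR2 lie near the diagonal, while DNMT3B (0.07 and 1.85) and IFI16 (2.57 and 0.13) lie far from it.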

How the data were processed

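The deposited files hold UMI counts per gene and per hashtag for each barcode of 2 captures (10x Genomics 3' libraries), from the authors' alignment to GRCh38, and the submitters' processing notes name Cell Ranger 6.1.2, bcl2fastq 2.20.0.422 and Seurat 4.3.0. Cells were assigned by the hashtag share, UMIs were summed per culture and divided by the culture's total to give CPM, and ratios used a pseudocount of 1 CPM. Doublets were limited by the 80% hashtag share alone. Exact Poisson and conditional binomial limits (95%) were computed with scipy 1.17.1 under Python 3.11.15. With 1 culture per group there is no test. The calls were tested on simulated data with counting error only and with changes larger than 2-fold. That says nothing about the spread between cultures or about genes near the limit. Alternatives changed the level limit, the pseudocount, the scaling (edgeR 4.0.16 TMM, DESeq2 1.42.0 size factors, R 4.3.3), the cell limits, the Epi-like rule and the blastoid run.

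Members, limits and the 43 gene lists were chosen with earlier results of these data known. The genes named are the 15 highest and 15 lowest ratios at a mean of at least 20 CPM with the same sign in run 2, up to 6 per list, and 8 each way for the difference between doses, leaving out mitochondrial, ribosomal, Y-linked and clone-named genes and the 9 rule genes. Positions are from GENCODE 44 (GRCh38), matched by Ensembl ID for 36366 of 36601 genes. Single values of a few genes that these rules name are not reported here.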

Additional observations from a re-analysis of the deposited data

Results flagged for a closer look

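For 6 named genes the ratio of Epi-like cells to aggregates pointed one way at 4 mM and the other way at 0 mM, with both counting intervals clear of 1. These differences were not tested, since each dose had 1 aggregate culture. As the log2 ratio at 4 mM minus that at 0 mM, the difference was 1.28 for the homeobox gene IRX2 and 1.27 for CNMD (chondromodulin), which had the higher level in Epi-like cells at 4 mM. It was -1.40 for FXYD6, -1.32 for AP1S1, -1.27 for PLAU (urokinase) and -1.23 for the WNT antagonist gene SFRP1, which had the lower level in Epi-like cells at 4 mM. For PLAU the aggregates stood at 52.5 CPM at 4 mM and 20.6 CPM at 0 mM, while all 4 blastoid cultures lay between 24.0 and 29.9 CPM.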

How the results depend on the processing

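Of 15 alternatives, 13 gave between 101 and 127 higher and between 49 and 68 lower genes, against 110 and 53. A mean of at least 2 CPM gave 226 higher and 136 lower genes, and at least 50 CPM gave 31 and 3, since the limit sets how many genes are compared (11567 and 2571). Of 62 named genes past 2-fold, 13 were called under all 15 alternatives and a further 26 under all but the limit of 50 CPM, where they were not compared. Of the log2 ratios 1 value of 1020 changed sign, KRT19 with all blastoid cells at 0.55. Many named genes were chosen for large ratios, and the 15 highest and 15 lowest had to keep their sign with run 2. That choice limited how many signs could change. With run 2 blastoids, 77 of the 110 and 32 of the 53 genes were past the limit. FOS, FOXD3, SFRP2 and TCF7L1 then had means under 10 CPM. Genes that then had ratios under 2-fold included TBX3, CDKN1A, USP44, IER2, TERF1, JAG1, PLAU, SPIC, FILIP1 and FXYD6. List medians near 0 changed sign in places, among them the G2/M, glutamate and trophectoderm lists. No paired analysis was possible because each group was 1 culture. Low genes are limited by counts, and the spread between aggregate cultures was not measured.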

Other observations

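Several genes outside the lists were past 2-fold, and they were chosen here after their values were seen. EFNB2, an ephrin ligand, stood at 2.93 CPM in 4 mM aggregates and at 21.4 and 18.2 CPM in Epi-like cells of run 1 and run 2. GPC4, a heparan sulphate proteoglycan of the cell surface, stood at 4.35, 26.7 and 22.7 CPM. At 0 mM EFNB2 stood at 2.21 CPM in aggregates and 12.4 in Epi-like cells of run 1, and GPC4 at 8.63 and 17.5 CPM. RASSF8, a Ras-association domain protein in the named set, stood at 11.4 CPM in 4 mM aggregates and at 69.0 and 60.3 CPM in Epi-like cells, and was detected after thinning in 37.3% of Epi-like cells and 32.1% of TE-like cells.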
